A study of Rattus norvegicus with 26 samples.

Results

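Lipolysis and insulin-regulated glucose uptake were followed in rat inguinal white adipose tissue through 6 genes: the receptor Adrb3, the lipases Pnpla2, Lipe and Mgll, the lipid droplet coat Plin1 and the glucose transporter Slc2a4. Every probe set on the array that was assigned to a single gene symbol, and that symbol to this list, was taken as a member. This gave 12 of 31042 probe sets, and 6 of the 14217 genes named on the array. Lipe, Plin1 and Slc2a4 were each measured by 2 probe sets, Mgll by 4, and Pnpla2 and Adrb3 by 1.

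The animals were inbred male Long-Evans (Turku/AB) rats, 11 to 15 weeks old, and the series counts 1 array per rat. The restricted rats received a daily portion of feed that was made smaller step by step, given whole during the light hours. On the short regimen the portions of pelleted feed were 18, 12, 9 and 6 g from day 0 to day 3, and adipose tissue and liver were sampled on day 4. The long regimen began with free feeding on day 0, then gave powdered feed, with 16 g on day 1, 8 g on day 4, 4 g on days 6 and 7 and 1 g on day 9, and liver was sampled on day 10. Corn oil, 4 mL/kg, was given to restricted and control rats alike on day 0, and the control rats were not restricted. There were 4 restricted and 4 control rats for adipose tissue at day 4, 4 and 4 for liver at day 4, and 5 and 5 for liver at day 10.

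A fat cell stores triglyceride in a droplet and releases it in steps. Catecholamines bind the beta-3 adrenergic receptor Adrb3, which raises cyclic AMP and switches on protein kinase A. The kinase phosphorylates Plin1, the coat of the droplet, which then lets go of the coactivator Abhd5. Abhd5 activates the triglyceride lipase ATGL, the product of Pnpla2. Hormone-sensitive lipase, the product of Lipe and itself a target of the kinase, acts on the diglyceride, and the monoglyceride lipase encoded by Mgll frees glycerol and the last fatty acid. Insulin opposes this chain and moves the transporter GLUT4, the product of Slc2a4, from inner vesicles to the cell surface. In fasting, insulin falls and lipolysis rises, much of it by phosphorylation and movement of proteins, which arrays of RNA do not measure.

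Promoter sequences were at hand from RefSeq (build GRCr8) for 3 of the 6 genes, Pnpla2, Mgll and Plin1, each from 250 bases before to 50 bases after a start site. For Pnpla2 and Mgll this site was the start of the gene. Plin1, on the minus strand, starts at 143086199 of chromosome 1, and its window ran from 143086099 to 143086398, so it was set on another start site. Those of Pnpla2 and Mgll are shown because these were the 2 members called in liver. In Mgll the capitals mark CACGTG, an E-box, whose first base lies at position -74 from the start site.
Pnpla2, chr1:205982029-205982328, plus strand: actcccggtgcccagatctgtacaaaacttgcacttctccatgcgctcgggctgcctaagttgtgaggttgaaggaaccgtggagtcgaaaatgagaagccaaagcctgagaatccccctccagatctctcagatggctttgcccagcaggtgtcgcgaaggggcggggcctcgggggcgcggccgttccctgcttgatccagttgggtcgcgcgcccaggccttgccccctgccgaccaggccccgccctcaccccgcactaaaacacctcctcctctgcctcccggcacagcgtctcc
Mgll, chr4:122749186-122749485, plus strand: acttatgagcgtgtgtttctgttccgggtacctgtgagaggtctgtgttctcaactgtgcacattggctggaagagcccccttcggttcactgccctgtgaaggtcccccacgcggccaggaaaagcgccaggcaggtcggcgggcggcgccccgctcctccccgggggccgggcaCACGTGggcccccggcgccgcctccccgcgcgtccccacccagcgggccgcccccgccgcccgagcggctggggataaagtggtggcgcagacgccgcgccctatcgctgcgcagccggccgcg

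The 3 windows held 63.7% G and C in Pnpla2, 72.3% in Mgll and 56.0% in Plin1, against a median of 51.7% over 33469 promoters of 300 bases. CACGTG, read on both strands, occurred in 6.42% of those promoters and among the 3 only in Mgll. The 5 other motifs searched on both strands were not in these 3 windows: the direct repeat DR1 of AGGTCA (0.0538% of all promoters), AGGTCA itself, which the repeat contains (16.2%), TGACGTCA (1.83%), TGTTTAC (3.78%) and TGACTCA (4.63%). A match is a description of letters in this window and not a binding site.

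Values below are the deposited log2 expression values, so a difference of 1 is 2-fold, and differences are restricted minus control with their standard error (SE). Array medians ran from 4.01 to 4.11 (adipose tissue) and from 3.16 to 3.32 (liver), and values near or below them are close to background. Correlations between arrays of the same tissue and day were 0.983 or higher. A probe set is said to rise or fall where the adjusted p from limma, fitted over all 31042 probe sets, was below 0.05. Of 7 measured adipocyte markers 7 lay above the array median in adipose tissue. In liver Adipoq, Lep, Fabp4 and Acvr1c lay below it, while Cfd, Cidec and Car3 lay above it.

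In adipose tissue at day 4 the lipases, the droplet coat and the receptor stayed high on the arrays of both groups. Although 4 against 4 arrays do not exclude larger ones, their estimated differences were small. The exception among the 6 genes was Slc2a4, which was 5.92-fold lower in restricted than in control rats without passing the adjusted threshold. No member probe set was called, 0 of 12, where 0.0548% of all probe sets were (17 of 31042). At an unadjusted p below 0.05 there were 3 of 12, both Slc2a4 probe sets and Plin1 probe set 1, against 7.69% of all probe sets. Restricted and control arrays did not overlap in 4 of 12 member probe sets, against 6.09% of all, and 1 of the 4 was a Mgll probe set close to background. The median difference over the 6 genes, each by its probe set 1, was -0.23. It was 0.01 over all genes, which include those near background. The median depends on the probe set chosen, since Mgll differed by -0.28 at probe set 1 and 0.06 at probe set 3.

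Adrb3, the catecholamine receptor at the head of the chain, read 10.95, 11.57, 11.75 and 11.81 in restricted rats, against 11.28, 11.55, 10.86 and 11.73 in control rats. The groups overlapped, and the lowest array of all 8 was control 3. The means were 11.5 ± 0.39 and 11.4 ± 0.38 (SD, n = 4 each), a difference of 0.16 (SE 0.25, 95% interval -0.43 to 0.76, limma adjusted p = 0.71). The interval covers changes from 0.743-fold to 1.69-fold, so the arrays do not show that the receptor was unaltered.

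Pnpla2, whose product ATGL takes the first fatty acid from triglyceride, had the smallest standard error of the 6 genes in adipose tissue. It read 13.73, 13.88, 13.75 and 13.94 in restricted rats, against 13.79, 13.61, 13.73 and 14.03 in control rats. Its groups overlapped throughout, at 13.8 ± 0.10 and 13.8 ± 0.17 (SD, n = 4 each). The difference was 0.04 (SE 0.09, 95% interval -0.18 to 0.26, limma adjusted p = 0.811). The interval covers changes from 0.880-fold to 1.19-fold, so a small change is not excluded.

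Lipe, encoding hormone-sensitive lipase, read 12.49, 12.76, 12.79 and 12.98 in restricted rats at probe set 1, against 12.82, 12.72, 12.87 and 13.33 in control rats. The highest array was control 4 and the lowest restricted 1, with overlap between them. The difference of -0.18 (SE 0.16, 95% interval -0.55 to 0.19) had a limma adjusted p of 0.706. Probe set 2 of Lipe lay between 2.72 and 2.87 on all 8 arrays, below the array median, and does not measure the gene here.

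Mgll, whose product completes the breakdown, was read by 3 probe sets well above background. Probe set 1 gave 11.05, 11.08, 11.24 and 11.60 in restricted rats, against 11.62, 11.10, 11.36 and 12.00 in control rats. The groups overlapped in all 3, and the probe sets did not point one way. Their differences were -0.28 (SE 0.21), -0.12 (SE 0.16) and 0.06 (SE 0.15), with limma adjusted p of 0.706, 0.706 and 0.817. At probe set 1 the 95% interval ran from -0.78 to 0.22, a change down to 0.584-fold. Probe set 4 lay at 4.00 ± 0.02 and 3.97 ± 0.02 (SD, n = 4 each), at the level of the array median, so its separation of the groups by 0.03 is not a measure of the gene.

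Plin1, the coat that guards the droplet surface, read 13.64, 13.86, 13.81 and 13.99 in restricted rats at probe set 1, against 14.00, 14.02, 14.13 and 14.38 in control rats. The groups did not overlap, although restricted 4 and control 1 were separated by only the last digit shown. The difference was -0.31 (SE 0.11, 95% interval -0.56 to -0.06), a level 1.24-fold lower, with a limma adjusted p of 0.502. Probe set 2 gave 10.45, 10.68, 10.59 and 10.65 in restricted rats, against 10.72, 10.40, 10.82 and 10.87 in control rats. Here control 2 was the lowest array of all, and the difference was -0.11 (SE 0.11, limma adjusted p = 0.706).

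Slc2a4, the gene of the insulin-responsive transporter GLUT4, read 7.65, 7.79, 6.61 and 7.68 in restricted rats at probe set 1, against 9.85, 9.55, 9.95 and 10.65 in control rats. Every restricted array lay below every control array, with a gap between the nearest arrays wider than the spread within either group. The means were 7.43 ± 0.55 and 10.00 ± 0.47 (SD, n = 4 each), a difference of -2.57 (SE 0.33, 95% interval -3.35 to -1.78). On the linear scale the level was 5.92-fold lower in restricted rats (95% interval 3.44 to 10.2). Of the 14217 genes, 3 had a lower difference.

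Probe set 2 of Slc2a4 gave 3.69, 4.56, 2.46 and 3.24 in restricted rats, against 6.03, 5.56, 6.51 and 7.36 in control rats. Restricted 3 was the lowest array and control 4 the highest in both probe sets. The difference was -2.88 (SE 0.54, 95% interval -4.14 to -1.62). Its size is uncertain, because the restricted mean of 3.49 fell below the array median, close to background.

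The limma adjusted p was 0.0956 for Slc2a4 probe set 1 and 0.184 for probe set 2, so neither was called. For a single value the exact two-sided permutation test over arrays gave p = 0.0286 for both, the smallest that 4 against 4 arrays allow. Over 15 alternative limma fits for probe set 1 the adjusted p ranged from 0.00882 to 0.302, and 3 of them were below 0.05, with the same direction in all 15. All 4 control arrays of adipose tissue were scanned before the 4 restricted arrays, and the fluidics protocol was recorded for the restricted arrays only, so scan order and feeding cannot be told apart.

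**Figure D1:**
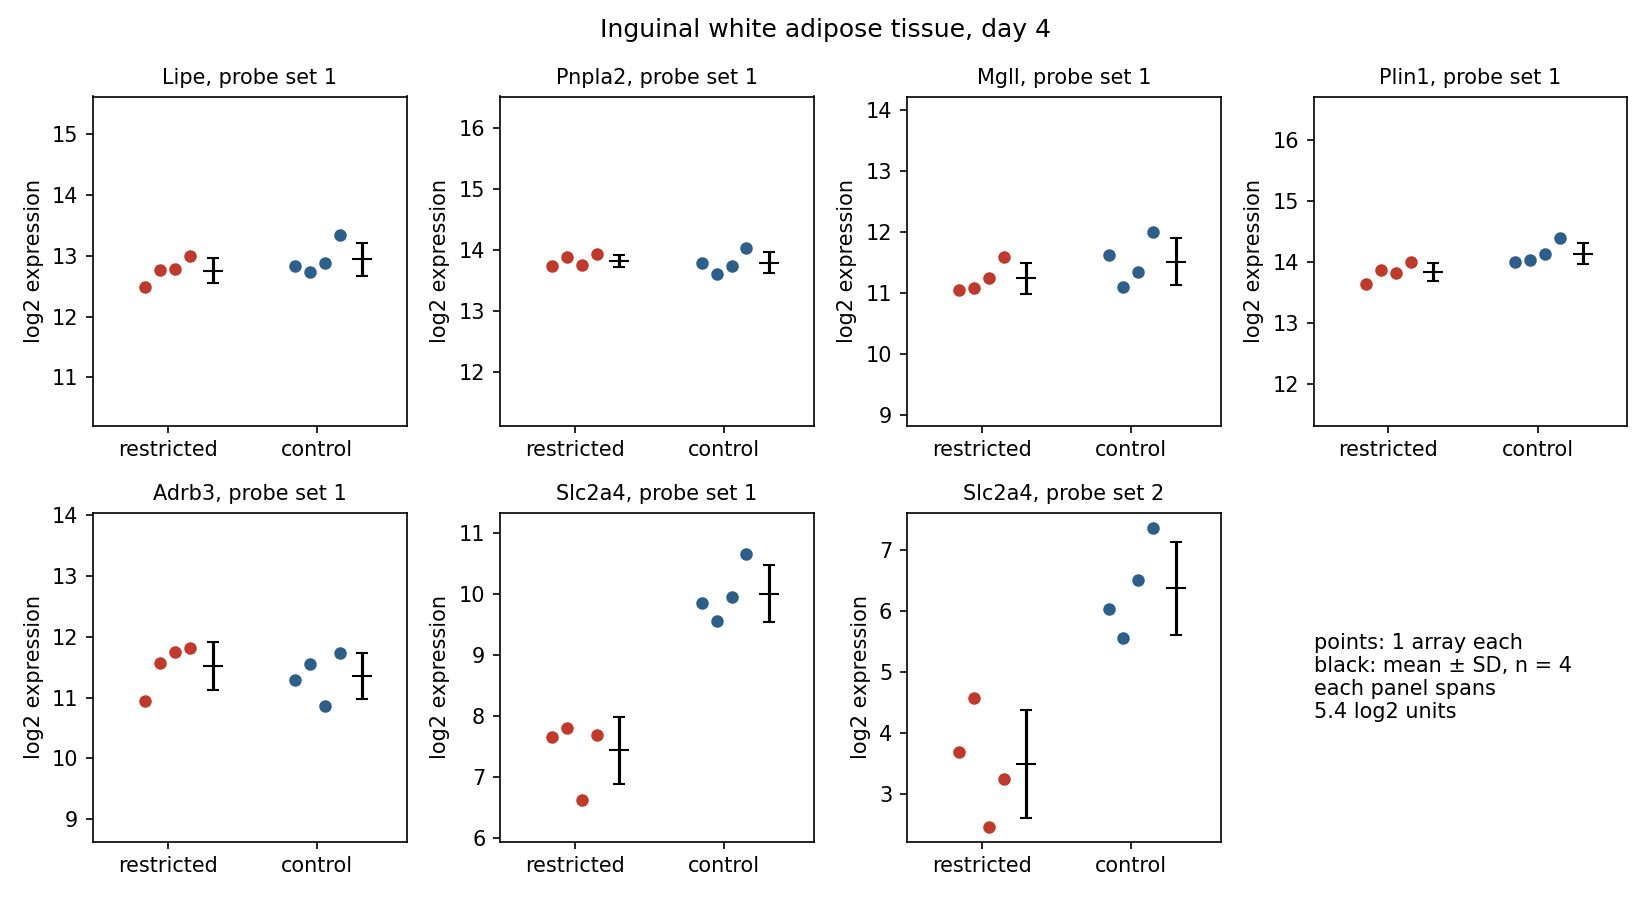
Log2 expression of 7 member probe sets in inguinal adipose tissue at day 4, restricted rats in red on the left and control rats in blue on the right. Each point is 1 array, black marks give the mean ± SD (n = 4), and all panels span the same number of log2 units. The restricted arrays of Slc2a4 probe set 1 lay between 6.61 and 7.79, all below the control arrays at 9.55 to 10.65, while Pnpla2, Lipe, Mgll and Adrb3 overlapped.

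The arrays at the ends of each group were largely the same across the member genes. Of 10 member probe sets above background in adipose tissue, 9 were highest in control 4 among control rats, and 7 were highest in restricted 4 among restricted rats. In 8 of the 10 the lowest restricted array was restricted 1. The 10 probe sets come from 6 genes. Control 4 and restricted 4 also had the lowest array medians of their groups (4.008 and 4.026), and restricted 1 the highest (4.112). How many of all probe sets share these ends was not counted, so the pattern is not shown to be particular to these genes. Slc2a4 was an exception in the restricted group, where restricted 3 was lowest. In a tissue sample, fewer cells of a type and less RNA per cell cannot be told apart.

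Across the 8 adipose arrays, which mix both groups and share 1 preprocessing, each gene was read by its probe set 1. Pearson's r between Lipe and Mgll was 0.899, between Lipe and Plin1 0.895 and between Lipe and Pnpla2 0.759. Mgll probe set 3 was ordered otherwise, highest in control 1 and lowest in control 4 among control rats. Its r was not computed, so the values for Mgll hold for probe set 1 only. Slc2a4 was closest to Plin1 (r = 0.816) and far from Pnpla2 (r = 0.106) and Adrb3 (r = -0.233). Among 8321 genes with an adipose mean of at least 5, those whose pattern was most like that of Lipe were Pccb (r = 0.986) and Jmjd8 (r = 0.983). For Pnpla2 they were Ypel3 (0.987) and Adck5 (0.962), for Mgll Dhrs7b (0.978) and Slc3a1 (0.970), for Plin1 Ogdh and Msrb1 (both 0.984), and for Adrb3 Tut1 (0.970) and Cdc42ep4 (0.968). For Slc2a4 they were Sh3kbp1 and Elovl5, both at 0.984. These are the 2 highest of 8321 values for each member over only 8 arrays, so a high r comes with the selection. Whether these genes are regulated together was not tested. Slc2a4 separated the groups, so its r includes the difference between them. Elovl5, a fatty acid elongase, fell by 0.70 (SE 0.07, limma adjusted p = 0.0325), a call lost without control 3 or restricted 2, 3 or 4, where no probe set was called, and Sh3kbp1, an adaptor protein, differed by -0.73 (SE 0.15, limma adjusted p = 0.213).

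The genes around the members were read from 5 lists. Among 17 measured receptors and cyclic AMP signalling genes of lipolysis, 0 were called, 15 had a negative difference and the median was -0.14, beside 0.01 over all genes. The largest difference was that of Ptger3, a prostaglandin E2 receptor that restrains cyclic AMP in fat cells. It read 10.12, 10.48, 10.40 and 10.61 in restricted rats, against 11.42, 11.17, 10.93 and 11.89 in control rats, without overlap. Its difference was -0.95 (SE 0.21, limma adjusted p = 0.254). Adora1, an inhibitory adenosine receptor, differed by -0.63 (SE 0.47, limma adjusted p = 0.706), and its control mean rested on control 4, at 6.06 where the other control arrays lay between 3.95 and 4.22.

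Of 19 lipase cofactors, droplet coats and genes handling the products, 0 were called, with a median of -0.13. Abhd5, the coactivator of ATGL, differed by 0.07 (SE 0.10, limma adjusted p = 0.709). G0s2, the inhibitor of ATGL, read 12.03, 12.28, 11.61 and 11.46 in restricted rats, against 13.44, 13.30, 12.22 and 13.10 in control rats. Only control 3 reached into the restricted range, and the difference was -1.17 (SE 0.31, 95% interval -1.9 to -0.45, limma adjusted p = 0.329).

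Pnpla3, a relative of ATGL found on droplets, was 7.24, 7.04, 7.67 and 8.29 in restricted rats, against 9.83, 9.55, 9.10 and 9.57 in control rats. The groups did not overlap, and the difference of -1.96 (SE 0.29) had a limma adjusted p of 0.116. Plin2, a droplet coat of most cells, differed the other way, by 0.54 (SE 0.08, limma adjusted p = 0.115), with restricted arrays at 9.58 to 9.73 and control arrays at 8.92 to 9.28. The coats Plin3 and Plin4 differed by -0.13 (SE 0.07, limma adjusted p = 0.706) and 0.00 (SE 0.14, limma adjusted p = 0.992), and Plin5 lay near background at 2.15 and 2.16.

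Insulin signalling and GLUT4 traffic held the only called gene of the 5 lists, 1 of 24. Irs2, an adaptor that couples the insulin receptor to PI3-kinase, rose by 1.22 (SE 0.10, limma adjusted p = 0.0258). It read 10.17, 10.46, 10.54 and 10.59 in restricted rats, against 9.20, 9.16, 9.13 and 9.38 in control rats, a 2.34-fold higher level without overlap. The call was lost when any of control 1, 2 or 3 or restricted 2, 3 or 4 was left out, although the difference stayed between 1.17 and 1.31 (limma adjusted p from 0.0302 to 0.132 over the 8 omissions), and when arrays were centred on their medians (0.0674). The median of this list was -0.04.

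The other glucose transporters and hexokinases had 0 of 7 called and differences from -0.23 to 0.18. Slc2a1, the insulin-independent transporter GLUT1, was close to background at 2.65 ± 0.10 in restricted and 2.84 ± 0.32 in control rats (SD, n = 4 each). Slc2a8 differed by -0.23 (SE 0.23, limma adjusted p = 0.706). Of 17 transcription regulators 0 were called, with a median of 0.00. The largest differences were those of Mlxipl, a glucose-responsive activator (-0.72, SE 0.40, limma adjusted p = 0.706), and of Cebpd, an early factor of fat cell formation (0.59, SE 0.51, limma adjusted p = 0.706). The control mean of Mlxipl rested on control 4, at 6.00. Its other control arrays lay between 4.16 and 4.39 and its restricted arrays between 3.90 and 4.13, close to background.

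**Figure D2:**
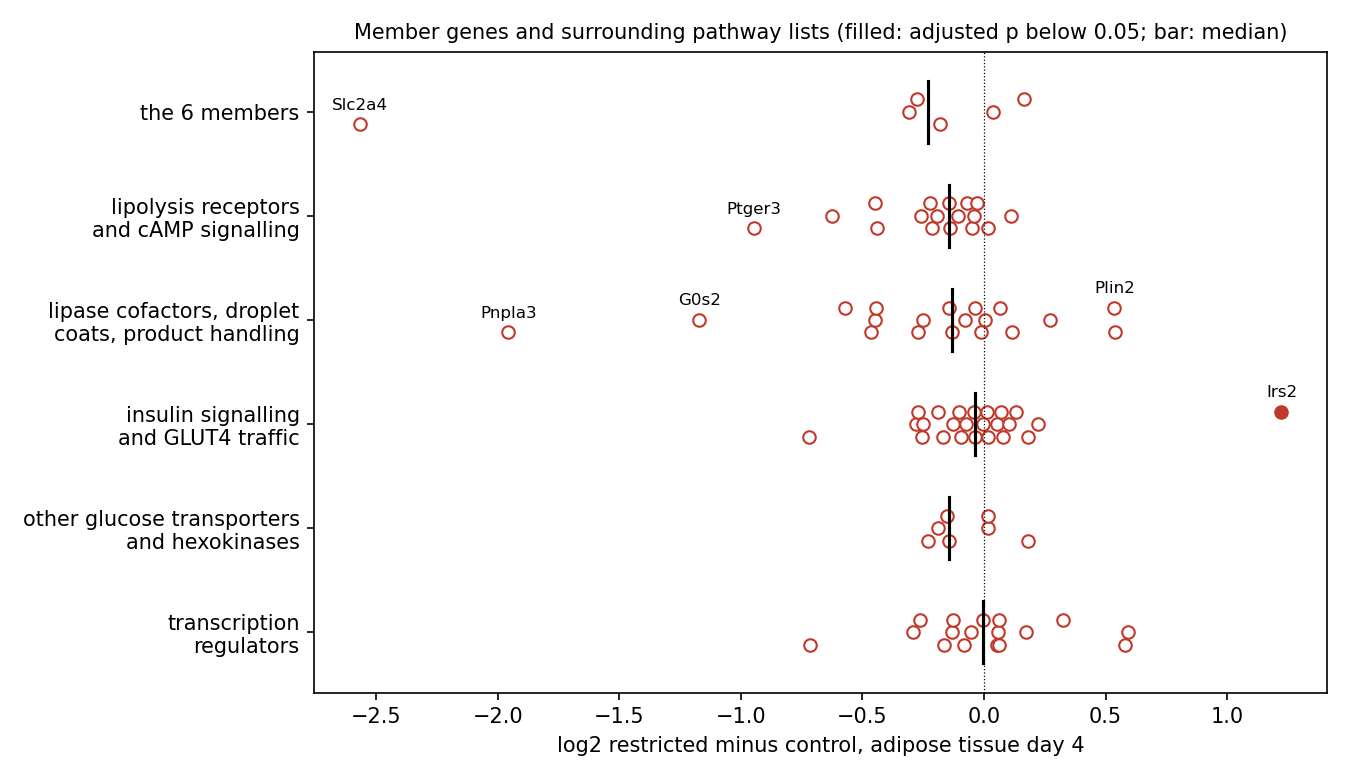
Differences between restricted and control rats in adipose tissue at day 4, on the log2 scale, for the 6 members and the 5 lists of genes around them. Each circle is 1 gene, filled where the limma adjusted p was below 0.05, and the black bar is the median of the row. Slc2a4 at -2.57 stood farthest to the left, and Irs2 at 1.22 was the filled circle.

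Markers of the cell types that adipose tissue can hold were counted beside these results. None of 10 lists had a called gene. The summed level of 7 adipocyte markers, relative to the control mean, was 0.945 to 1.03 in restricted rats and 0.962 to 1.03 in control rats. Such a sum rests mostly on the brightest markers. By single gene 5 of the 7 were lower and 2 higher. The largest differences were those of Lep (-0.59, SE 0.22, limma adjusted p = 0.577) and Cidec (-0.25, SE 0.11, limma adjusted p = 0.689). Macrophage markers summed to 0.948 to 1.08 and 0.887 to 1.19 in restricted and control rats, endothelial markers to 0.688 to 1.47 and 0.741 to 1.5, and fibroblast and preadipocyte markers to 0.723 to 1.04 and 0.887 to 1.20. Of the 8 fibroblast and preadipocyte markers 6 were lower by value and 2 higher. Col3a1 differed by -0.55 (SE 0.11, limma adjusted p = 0.213) without overlap, and Pdgfrb by 0.74 (SE 0.34, limma adjusted p = 0.691). Lymphocyte markers summed to 0.727 to 1.20 in restricted and 0.854 to 1.13 in control rats, red cell markers to 1.01 to 1.25 and 0.757 to 1.25, and epithelial markers to 0.404 to 2.00 and 0.623 to 1.51. All 6 skeletal muscle markers, from a tissue that also uses GLUT4, lay below the array median.

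Brown adipocyte markers summed to 0.463 to 0.679 in restricted rats and 0.622 to 1.58 in control rats. Their defining genes Ucp1, Dio2 and Elovl3 lay below the array median, and Cpt1b, which muscle also uses, differed by -0.79 (SE 0.31, limma adjusted p = 0.606). Hepatocyte markers summed to 0.476 to 1.02 in restricted and 0.753 to 1.29 in control rats. Among them Ttr was at 3.77, 4.19, 4.51 and 3.57 in restricted rats, against 8.03, 6.14, 6.11 and 5.42 in control rats (-2.41, SE 0.55, limma adjusted p = 0.258). The part of these markers in the difference of Slc2a4 was not tested.

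In liver the same probe sets gave another picture, since Plin1, Adrb3 and Slc2a4 were near background. Lipe probe set 1 lay below the array median at day 4 and above it at day 10. Pnpla2, the lipase ATGL, was the member that rose there, 3.27-fold at day 10. Mgll rose slightly at day 4 by 1 of its probe sets. Of 12 member probe sets 1 was called at day 4, where 5.58% of all probe sets were, and 1 at day 10, where 11.2% were. Arrays of the groups did not overlap in 2 of 12 at day 4 and 1 of 12 at day 10, against 10.9% and 11.4% of all. These shares are close to those of all probe sets, and say nothing particular about the 6 genes.

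Pnpla2 in liver at day 10 read 9.03, 9.15, 9.16, 9.75 and 11.00 in restricted rats, against 7.90, 7.72, 8.01, 7.89 and 8.03 in control rats. Every restricted array was above every control array, and restricted 5 stood above the other 4. The means were 9.62 ± 0.82 and 7.91 ± 0.12 (SD, n = 5 each). The rise of 1.71 (SE 0.35, 95% interval 0.92 to 2.50) had a limma adjusted p of 0.0124, or 3.27-fold with an interval from 1.89 to 5.66. Of the 14217 genes, 86 had a higher difference.

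The day 10 arrays came from 2 scan days, 2 restricted and 3 control arrays on the first, and 3 restricted and 2 control arrays on the second. Pnpla2 rose by 1.22 (SE 0.10, limma adjusted p = 0.0316) on the first day alone and differed by 2.01 (SE 0.60, limma adjusted p = 0.205) on the second, and with scan day as a block it rose by 1.61 (SE 0.34, limma adjusted p = 0.0195). Marker lists of other cells moved in the same livers, where 5.36% of all probe sets fell and 5.82% rose. Of 10 macrophage markers 7 fell and 0 rose, with a summed level of 0.612 to 0.704 in restricted and 0.846 to 1.08 in control rats. Both measured red cell markers, Alas2 and Hbb, fell, with sums of 0.110 to 0.380 in restricted and 0.613 to 1.49 in control rats. Among 8 fibroblast and preadipocyte markers 1 rose and 2 fell (0.693 to 1.04 in restricted and 0.861 to 1.27 in control rats), and among 6 lymphocyte markers 1 fell (0.656 to 0.686 in restricted and 0.814 to 1.14 in control rats). Epithelial markers rose in 2 of 6 cases (0.971 to 1.37 in restricted and 0.944 to 1.08 in control rats). Of 7 adipocyte markers 1 fell, Car3 (0.104 to 0.700 in restricted and 0.913 to 1.09 in control rats), and Adipoq was at background. Hepatocyte markers summed to 0.969 to 1.04 in restricted and 0.978 to 1.03 in control rats, with 1 of 5 falling. Endothelial, skeletal muscle and brown adipocyte markers had 0 called. The part of these markers in the rise of Pnpla2 was not tested.

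At day 4 Pnpla2 in liver read 7.72, 8.10, 7.40 and 7.40 in restricted rats, against 7.26, 7.18, 7.39 and 7.29 in control rats. The groups did not overlap, though restricted 3 and 4 were barely above control 3. The difference was 0.37 (SE 0.16, 95% interval 0.01 to 0.74, limma adjusted p = 0.318). The long and short regimens differed in feed form and length, and their arrays were preprocessed apart, so the 2 differences are set side by side without a test.

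G0s2, the inhibitor of ATGL, differed in liver by -0.94 (SE 0.37, limma adjusted p = 0.270) at day 4 and -1.30 (SE 0.44, limma adjusted p = 0.110) at day 10. Abhd5, its coactivator, differed by -0.37 (SE 0.17, limma adjusted p = 0.391) and -0.31 (SE 0.14, limma adjusted p = 0.291). Plin2 fell in liver, by 2.4 (SE 0.29, limma adjusted p = 0.00479) at day 4 and by 1.61 (SE 0.40, limma adjusted p = 0.0317) at day 10.

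Mgll probe set 1 in liver at day 4 read 7.87, 7.66, 7.80 and 7.80 in restricted rats, against 7.58, 7.51, 7.32 and 7.51 in control rats. Without overlap, it rose by 0.30 (SE 0.07, 95% interval 0.15 to 0.46, limma adjusted p = 0.0433). Probe set 2 differed by 0.20 (SE 0.10, limma adjusted p = 0.454), and probe set 3 lay near background. The call was lost when control 2, 3 or 4 or restricted 1, 3 or 4 was left out (limma adjusted p from 0.0648 to 0.120). It was also lost after quantile normalization (0.111), after centring each array on its median (0.116), with a trended and robust variance (0.0800) and over the mean of the gene's probe sets (0.12, limma adjusted p = 0.361). All alternatives for this probe set together ran from 0.00600 to 0.361. In the same livers 3 of 10 macrophage markers fell (summed level 0.727 to 0.875 in restricted and 0.925 to 1.07 in control rats). Among 8 fibroblast and preadipocyte markers Col3a1 fell (0.545 to 0.779 in restricted and 0.932 to 1.05 in control rats), and among 5 hepatocyte markers Ttr fell (0.876 to 1.02 in restricted and 0.963 to 1.02 in control rats). The other 7 lists had 0 called, and red cell markers summed to 0.161 to 0.879 in restricted and 0.458 to 2.35 in control rats. The part of these markers in the rise of Mgll was not tested.

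At day 10 Mgll was not called at any probe set. Probe set 1 read 8.81, 8.71, 8.70, 8.35 and 7.70 in restricted rats, against 8.64, 8.64, 8.45, 8.76 and 8.52 in control rats, a difference of -0.15 (SE 0.20, limma adjusted p = 0.988). Probe set 2 read 7.42, 7.92, 7.26, 7.16 and 5.70 in restricted rats, against 6.90, 7.17, 6.94, 7.31 and 7.06 in control rats. Restricted 5, the highest array for Pnpla2, was the lowest for both of these probe sets.

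The remaining members gave little signal in liver. Adrb3 lay at 2.57 to 2.69 over all 18 liver arrays, and Plin1 at 2.04 to 2.14 over both probe sets. Slc2a4 lay at 2.19 to 2.33 in probe set 1 and 2.01 to 2.09 in probe set 2, in restricted and control rats alike. Lipe probe set 1 was at 2.77 ± 0.11 and 2.72 ± 0.02 at day 4 (SD, n = 4 each). At day 10 it was at 4.23 ± 0.29 and 3.93 ± 0.13 (SD, n = 5 each), a difference of 0.29 (SE 0.14, limma adjusted p = 0.280).

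**Figure D3:**
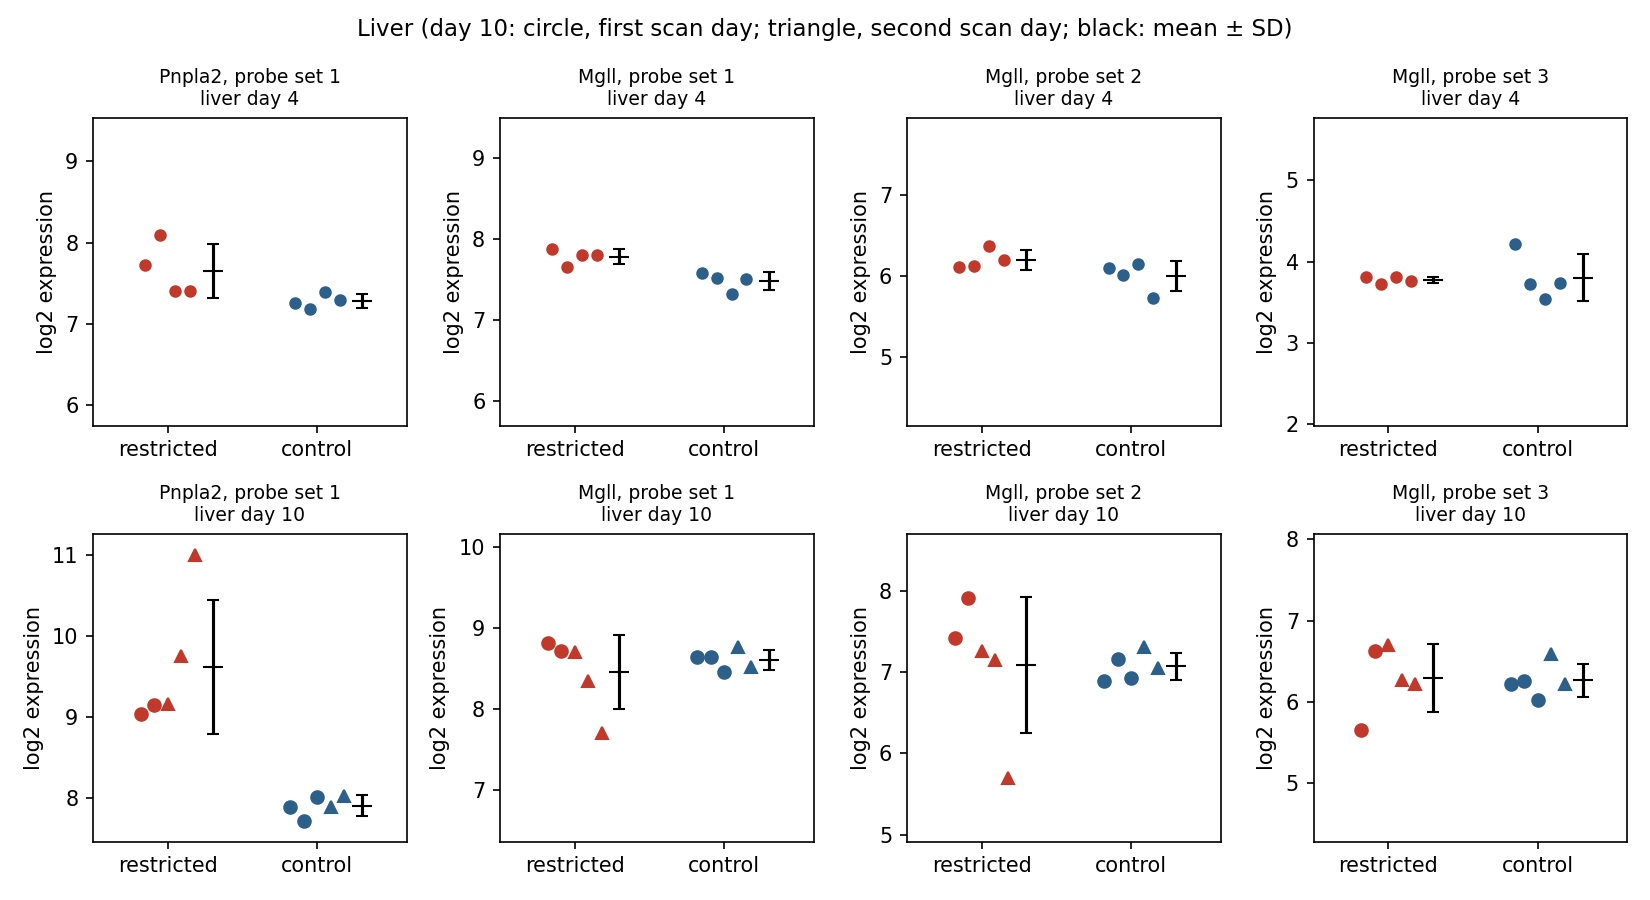
Log2 expression of Pnpla2 and of 3 Mgll probe sets in liver, at day 4 in the upper row and day 10 in the lower row, restricted rats in red on the left and control rats in blue on the right. Each point is 1 array, black marks give the mean ± SD (n = 4 at day 4 and 5 at day 10), and circles and triangles at day 10 are the first and second scan day. Pnpla2 at day 10 lay between 9.03 and 11.00 in restricted rats, above control rats at 7.72 to 8.03.

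Whether the 4-day regimen acted differently in the 2 tissues was tested directly over the 16 arrays of adipose tissue and liver at day 4, as the adipose difference minus the liver difference. This was called for 2 of 12 member probe sets, both of Slc2a4, where 3.41% of all probe sets were. For Slc2a4 probe set 1 the difference between tissues was -2.59 (SE 0.35, 95% interval -3.34 to -1.85, limma adjusted p = 0.00100), made of -2.57 in adipose tissue and 0.03 in liver. For probe set 2 it was -2.88 (SE 0.56, limma adjusted p = 0.0116). Slc2a4 was at background in liver, where a lower level could not be seen, so this test set the adipose difference against a reading that had no room to fall. The test also pooled the variance of both tissues. At probe set 1 the SD was 0.02 (restricted) and 0.06 (control) in liver, against 0.55 and 0.47 in adipose tissue. The call is therefore not a stronger result than the adipose difference, which was not called by itself.

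The other members were not called in this test. Mgll probe set 1 differed between tissues by -0.58 (SE 0.23, limma adjusted p = 0.264), Pnpla2 by -0.34 (SE 0.19, limma adjusted p = 0.540) and Plin1 probe set 1 by -0.32 (SE 0.11, limma adjusted p = 0.174). Values for Lipe and Adrb3 were -0.23 (SE 0.17, limma adjusted p = 0.736) and 0.16 (SE 0.26, limma adjusted p = 0.933). Plin1, Lipe probe set 1 and Adrb3 lay below the array median in liver at day 4. Their values here therefore mostly repeat the adipose difference and do not compare 2 measured responses.

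**Figure D4:**
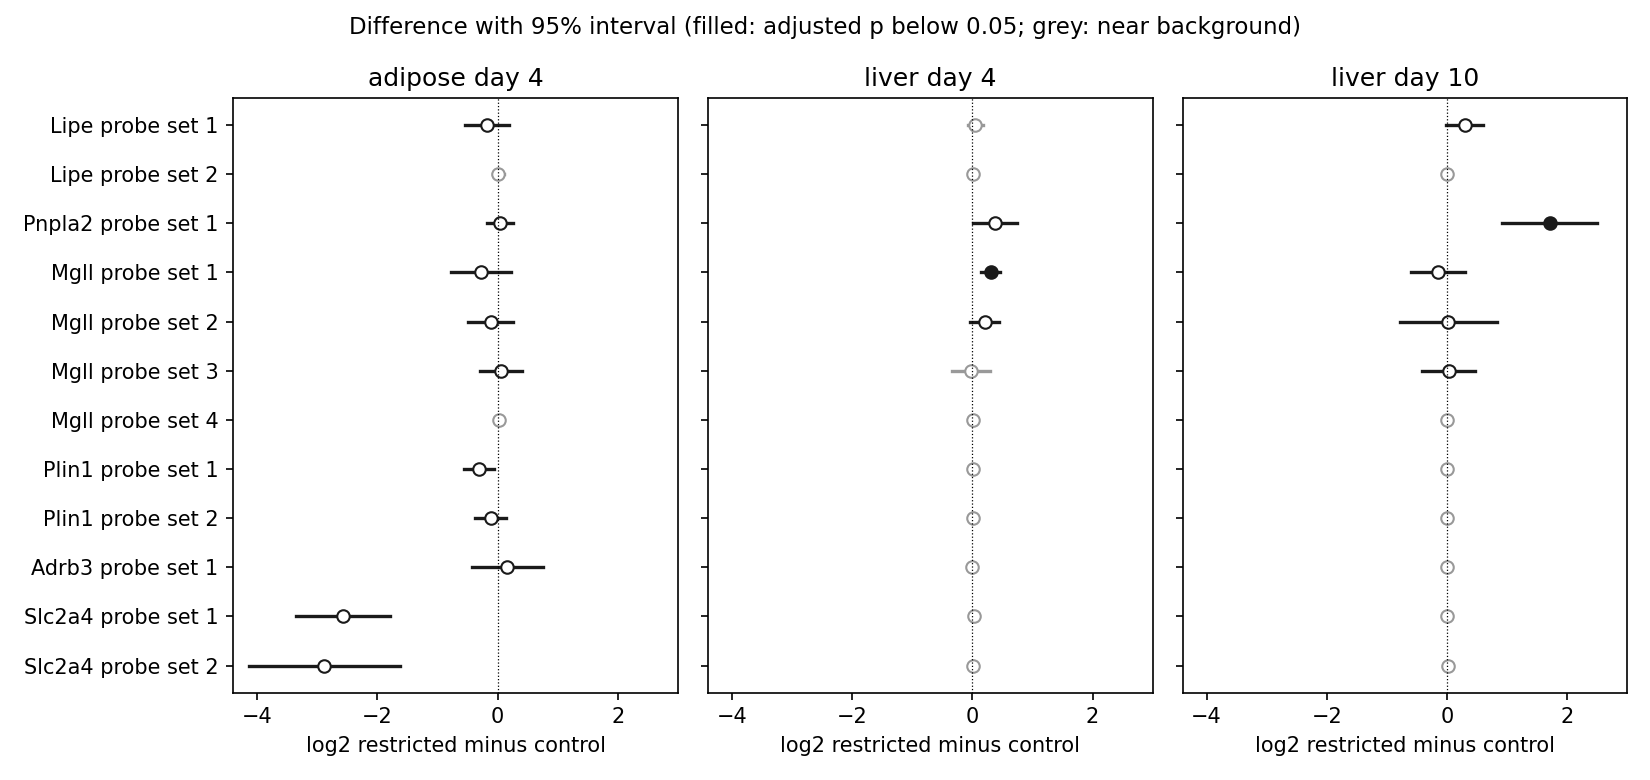
Restricted minus control differences of the 12 member probe sets on the log2 scale in adipose tissue at day 4 and in liver at days 4 and 10, each with its 95% interval. Filled circles had a limma adjusted p below 0.05, and grey marks are probe sets near background. The Slc2a4 probe sets lay at -2.57 and -2.88 in adipose tissue, and the filled circles in liver are Mgll probe set 1 at day 4 (0.30) and Pnpla2 at day 10 (1.71).

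The 5 gene lists were counted in liver too, where 2.94% of all probe sets rose and 2.64% fell at day 4, and 5.82% rose and 5.36% fell at day 10. Receptors and cyclic AMP genes of lipolysis had 2 rising and 2 falling of 17 at day 4, and 0 rising and 4 falling at day 10. Lipase cofactors, coats and product handling had 0 rising and 2 falling of 19, and then 0 and 3. Insulin signalling and GLUT4 traffic had 1 rising and 1 falling of 24, and then 3 and 2. Other glucose transporters and hexokinases had 0 rising and 1 falling of 7, and then 1 and 1, and transcription regulators 1 rising and 2 falling of 17, and then 2 and 3. Irs2 rose there by 3.18 (SE 0.57, limma adjusted p = 0.0204) at day 4 and 1.76 (SE 0.38, limma adjusted p = 0.0155) at day 10. Ptger3, lower by value in adipose tissue, rose in liver at day 4 by 1.37 (SE 0.16, limma adjusted p = 0.00401). Pnpla3 fell by 5.44 there (SE 1.08, limma adjusted p = 0.0306), with control arrays spread from 6.81 to 12.08. In liver at day 10 neither was called. Ptger3 differed by 0.45 (SE 0.19, limma adjusted p = 0.216) and Pnpla3 by -1.02 (SE 0.39, limma adjusted p = 0.165). In the test between tissues at day 4, adipose minus liver, the value was -2.32 (SE 0.28, limma adjusted p = 0.000436) for Ptger3 and 2.93 (SE 0.32, limma adjusted p = 0.000196) for Plin2, both called. It was -1.96 (SE 0.61, limma adjusted p = 0.115) for Irs2, 3.48 (SE 1.17, limma adjusted p = 0.152) for Pnpla3 and -0.23 (SE 0.50, limma adjusted p = 0.933) for G0s2, which were not called.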

How the data were processed

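Total RNA of inguinal adipose tissue and liver was measured on 26 rat expression arrays, 13 of restricted and 13 of control rats. RNA was extracted with a lipid tissue kit from adipose tissue and a standard kit from liver, per the labels' protocols. Per the submitters' processing notes, R 2.4.1, affy 1.12.2, RMA and GCRMA 2.6.0 were used. Whether RMA or GCRMA gave the deposited table is not stated. Its values are log2 expression, and the authors preprocessed adipose tissue, day 4 liver and day 10 liver separately, so levels were compared only within a set.

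The 57 control features among 31099 were dropped, and 20826 of the remaining 31042 probe sets carried 1 gene symbol. A gene was shown by its probe set with the highest mean over the 26 arrays, numbered 1. For genes outside the members, other probe sets are not printed. Differences were tested by two-sided moderated tests of linear models (limma 3.58.1, R 4.3.3), and p-values were adjusted over all probe sets by the Benjamini-Hochberg method. The procedure was tested on simulated data. Single values were also tested by an exact permutation test over arrays. The members and gene lists were chosen with earlier results of these data known. Named genes were the members, up to 4 called genes of each list in adipose tissue (the 2 largest differences where none was called), the 2 genes most like each member, Plin2 to Plin5, Abhd5, G0s2 and Slc2a1. Not all cell type markers chosen in this way are printed. Scan records of the day 4 liver arrays were not used here. Precision is limited by the 4 or 5 arrays per group.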

Additional observations from a re-analysis of the deposited data

Results flagged for a closer look

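By Dixon's test of the gap between an end array and its neighbour, 2 groups held an array far from the others. In the restricted rats of adipose tissue, Slc2a4 probe set 1 was such a case. Restricted 3 read 6.61, the next lowest 7.65 and the highest 7.79, so the gap filled 0.878 of the range of the group. Without that array the difference was -2.29 and the limma adjusted p 0.0871. In control livers at day 10, Lipe probe set 1 had its lowest array, control 2, at 3.70, the next lowest at 3.96 and the highest at 4.02. The gap was 0.806 of the range, at a level not far above the array median (3.28). Of 36 groups of arrays examined 2 stood out in this way, and chance marks about 1 in 20 groups. The effect of restriction differed between adipose tissue and liver at day 4 for Slc2a4 probe set 1 (-2.59) and probe set 2 (-2.88), in the test of that difference. Liver was at background for both, the variance was pooled over the tissues, and the adipose difference by itself was not called.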

How the results depend on the processing

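The count of called probe sets in adipose tissue, 17 as reported, was 29 with only probe sets of a mean of at least 5, 9 after quantile normalization, 3 after centring and 1187 with array weights, which ran from 0.0834 (control 4) to 7.39 (restricted 2). In 1 of the 3 sets the weights stopped before converging. It lay between 0 and 15 when 1 array was left out, at 0 without control 3 or restricted 2, 3 or 4, at 1, 2 and 3 without control 1, control 2 and restricted 1, and at 15 without control 4. Slc2a4 probe set 1 passed the threshold at -2.57 under the mean filter (limma adjusted p = 0.0262) and a trended and robust variance (0.0459), and at -2.07 with array weights (0.00882). The exact permutation test of a single value gave an unadjusted p of 0.0286, its smallest possible, for Slc2a4 probe set 1 at -2.57 and Plin1 probe set 1 at -0.31. The Slc2a4 difference at probe set 1 stayed between -2.72 and -2.29 with any array left out (limma adjusted p from 0.0871 to 0.265). In liver at day 4, 2723 probe sets were called with array weights against 1732, and 1091 to 1744 with 1 array left out, lowest without restricted 1 and at 1146 without control 4. In liver at day 10, against 3471, the first scan day alone gave 567 and the second 1240, each on 5 arrays, an alternative chosen after seeing the data. Pnpla2 there stayed between 1.36 and 1.86 with any array left out (limma adjusted p from 0.000889 to 0.0337).

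With the replicate number as a block, 0 probe sets were called in adipose tissue and 987 in liver at day 4. Correlations of same-numbered arrays ran from -0.381 to 0.264 in adipose tissue and from -0.086 to 0.172 in liver at day 4. In liver at day 10 they ran from -0.083 to 0.099. With so few arrays per group, low correlations cannot decide whether the numbers pair the rats. Under the block Irs2 (adipose limma adjusted p = 0.179), Mgll probe set 1 (liver day 4, 0.106) and the tissue difference of Slc2a4 probe set 2 (0.10) were no longer called, and that of Plin1 probe set 1 was (0.0283).

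Small differences changed sign, and the cause was not tested. In adipose tissue Mgll probe set 2 was 0.0102 after quantile normalization, and with array weights Mgll probe set 3 was -0.0019 and Plin1 probe set 2 was 0.0540. In liver at day 10 Mgll probe set 3 was -0.0200 with scan day as a block, -0.0261 on the first day and -0.0139 on the second, where probe set 2 was -0.48, and probe set 1 was 0.18 on the first. With 1 array left out the ranges were -0.0232 to 0.11 for Pnpla2, -0.0025 to 0.35 for Adrb3 and -0.0450 to 0.13 for Mgll probe set 3 in adipose tissue, -0.24 to 0.0391, -0.19 to 0.37 and -0.0710 to 0.19 for Mgll probe sets 1 to 3 in liver at day 10, and -0.0034 to 0.35 for Adrb3 and -0.0551 to 0.17 for Mgll probe set 3 between tissues. A scan day block could not be fitted for day 4, with 1 scan day in adipose tissue and no record used in liver.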
